A study of Homo sapiens with 8 samples.

Results

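The HOX genes are the 38 protein-coding members of the HOXA, HOXB, HOXC and HOXD clusters analysed here, of 39 in the family, and of 20033 protein-coding genes in all on chromosomes 1 to 22, X and Y. The rule that defines them uses gene names and no measured value, and gives 10 HOXA, 10 HOXB, 9 HOXC and 9 HOXD genes. The data are maps of H3K27ac, acetylation of lysine 27 on histone H3, obtained by chromatin immunoprecipitation and sequencing (ChIP-seq). The cells were pancreatic progenitors (PPs) derived from the established human embryonic stem cell line MEL1, which the study's methods give as INS GFP/W, with a GFP reporter in the insulin gene, and kept in EF6, a basal medium with B27, EGF, bFGF and the TGFβ receptor inhibitor 616452. One group received the solvent DMSO and the other received 1 μM I-BET151, an inhibitor of the BET bromodomain proteins that bind acetylated histones, for 7 days in both cases. Each group had 2 H3K27ac libraries, each with an input library of its own that had no list of values. All cells came from 1 line and shared the same medium and inhibitor of TGFβ signalling. Nothing in the labels says that replicates came from separate differentiations, so the spread between libraries may be technical.

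HOX genes encode homeodomain transcription factors that give cells their position along the head-to-tail axis of the embryo. Within a cluster the genes are ordered as they are used, with the genes of low number at the 3′ end active first and most anteriorly, and those of high number at the 5′ end active last and most posteriorly. Genes with the same number in different clusters form a paralog group. Silent HOX chromatin carries the Polycomb mark H3K27me3, and because a lysine cannot be methylated and acetylated at once, H3K27ac appears where a HOX gene or an enhancer within the cluster is active. The pancreas arises from the posterior foregut, an endoderm region in which anterior and central HOX genes are commonly active.

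In DMSO, 4 of the 38 genes had an H3K27ac peak in their body or within 2 kb of it, namely HOXA3, HOXA4, HOXB3 and HOXB4. In I-BET151 these genes were covered more, and 7 further genes had peaks in both libraries: HOXA2, HOXA5, HOXA6, HOXB2, HOXB5, HOXB7 and HOXB8. Of these, HOXA6 was reached only by the edge of a HOXA5 peak, and HOXB7 and HOXB8 were counted through the same peaks. No HOX gene was covered less. The posterior genes of the HOXA and HOXB clusters, and every gene of the HOXC and HOXD clusters, had no peak in any of the 4 libraries.

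The sequences below show the kinds of position on which these results rest, all on GRCh38 (hg38). Capitals mark bases that lay inside a peak of both I-BET151 libraries and were not inside a peak of both DMSO libraries. The first is a HOXA3 promoter at chr7:27113793-27114092 (minus strand), chosen because it lay wholly inside a peak in all 4 libraries. HOXA3 has further promoters, and some lay outside every peak, for example those at chr7:27152534-27152833 and chr7:27118308-27118607. The next is the HOXA4 promoter at chr7:27130708-27131007 (minus strand), where DMSO replicates 1 and 2 covered 0 and 33 of 300 bases and I-BET151 replicates 1 and 2 covered 120 and 59. The HOXB3 intronic region at chr17:48564443-48564742 (plus strand) surrounds the summit of I-BET151 replicate 1, in a region that was called in every library and was wider in I-BET151. The HOXA5 downstream region at chr7:27139449-27139748 (plus strand), between HOXA4 and HOXA5, had peaks only in the I-BET151 libraries. The HOXA6 promoter at chr7:27147725-27148024 (minus strand) lay outside every peak and is shown because HOXA6 is the first gene beyond the acetylated stretch. Promoters are those of RefSeq, 250 bases before to 50 after a start, on GRCh38.p14.
HOXA3 promoter: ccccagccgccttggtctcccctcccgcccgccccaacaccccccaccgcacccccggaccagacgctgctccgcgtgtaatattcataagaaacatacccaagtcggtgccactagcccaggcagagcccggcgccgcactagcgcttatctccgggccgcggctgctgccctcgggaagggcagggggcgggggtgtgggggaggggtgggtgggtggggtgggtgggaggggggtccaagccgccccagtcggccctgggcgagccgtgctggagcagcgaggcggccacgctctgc
HOXA4 promoter: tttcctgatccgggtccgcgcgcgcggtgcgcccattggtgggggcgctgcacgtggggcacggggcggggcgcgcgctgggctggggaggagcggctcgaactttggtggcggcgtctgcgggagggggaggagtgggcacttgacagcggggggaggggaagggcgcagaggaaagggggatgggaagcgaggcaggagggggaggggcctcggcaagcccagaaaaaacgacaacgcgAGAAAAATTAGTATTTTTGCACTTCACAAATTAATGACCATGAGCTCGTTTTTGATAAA
HOXB3 intronic region: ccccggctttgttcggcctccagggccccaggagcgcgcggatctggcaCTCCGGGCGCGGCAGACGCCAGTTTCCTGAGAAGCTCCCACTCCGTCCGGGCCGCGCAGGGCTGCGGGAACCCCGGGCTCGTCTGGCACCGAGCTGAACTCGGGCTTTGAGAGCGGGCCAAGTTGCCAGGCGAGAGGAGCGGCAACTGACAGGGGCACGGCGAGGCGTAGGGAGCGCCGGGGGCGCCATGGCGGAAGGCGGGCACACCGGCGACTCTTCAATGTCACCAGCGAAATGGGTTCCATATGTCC
HOXA5 downstream region: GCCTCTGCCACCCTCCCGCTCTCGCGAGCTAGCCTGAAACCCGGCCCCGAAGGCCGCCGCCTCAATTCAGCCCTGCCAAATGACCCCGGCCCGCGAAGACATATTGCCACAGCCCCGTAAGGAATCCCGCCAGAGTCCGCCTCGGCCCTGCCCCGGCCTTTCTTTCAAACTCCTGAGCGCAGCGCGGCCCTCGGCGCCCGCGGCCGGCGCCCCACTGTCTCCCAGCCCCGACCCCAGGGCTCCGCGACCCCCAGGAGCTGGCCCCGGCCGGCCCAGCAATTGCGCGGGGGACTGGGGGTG
HOXA6 promoter: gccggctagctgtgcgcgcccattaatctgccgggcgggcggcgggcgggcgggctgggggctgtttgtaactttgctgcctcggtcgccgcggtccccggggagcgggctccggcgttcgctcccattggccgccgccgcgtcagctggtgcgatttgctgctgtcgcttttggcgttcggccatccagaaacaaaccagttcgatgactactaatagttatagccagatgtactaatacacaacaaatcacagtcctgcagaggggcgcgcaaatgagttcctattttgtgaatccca

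In the HOXA4 promoter the capitals lie at the downstream end, next to the start of the gene, and most bases before them lay between the peaks on either side. Some of these 59 capitals lay inside the peak of DMSO replicate 2, which covered 33 bases of the promoter. In the HOXB3 region the first bases were inside a peak in all 4 libraries, and the remaining 251 were inside the peaks of I-BET151 and outside that of at least 1 DMSO library. DMSO replicates 1 and 2 covered 260 and 49 of its 300 bases. Most of these capitals thus lay inside a peak of DMSO replicate 1 and show a difference between the DMSO libraries. The HOXA5 region is in capitals throughout, because no DMSO library had a peak there. The lower case of the printed HOXA3 promoter stands for acetylation in both groups, and that of the HOXA6 promoter for acetylation in neither.

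Peaks are intervals in which the authors' peak caller found more ChIP reads than input. The 4 lists held 12312 to 14248 peaks that covered 8.62 to 9.91 Mb, and the I-BET151 lists were the shorter ones. The depth behind the lists, as recovered from their values, was 7.96 and 9.84 M ChIP reads in DMSO and 7.76 and 8.04 M in I-BET151, where M is the SI prefix mega. Of 10 PP markers 9 had a peak in every library, among them PDX1, NKX6-1, SOX9, FOXA2 and GATA4, and PTF1A had none. Of 5 pluripotency genes POU5F1, NANOG, SOX2 and DPPA4 had none either, while LIN28B had a peak in every library. All 5 endocrine markers, among them INS and NEUROG3, had no peak.

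First, coverage of each whole cluster was measured, with 50 kb on either side. The HOXA window (chr7:27050354-27250091) held 1924 and 2488 bp of peaks in DMSO replicates 1 and 2, and 8426 and 6863 bp in I-BET151 replicates 1 and 2. Both I-BET151 values lay above both DMSO values. The mean was 2.21 ± 0.399 kb (SD, n = 2) in DMSO and 7.64 ± 1.11 kb (SD, n = 2) in I-BET151, a difference of 5.44 kb or 3.47-fold (two-sided exact permutation test, p = 0.333). With 2 libraries a group 0.333 is the smallest p this test can give, so no difference between single values could pass a threshold. In bulk chromatin more acetylated cells and more acetylation per cell cannot be told apart.

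The HOXB window (chr17:48478526-48778750) held 1655 and 1669 bp in the DMSO libraries and 6820 and 6605 bp in the I-BET151 libraries. Replicates of a group were closest here. DMSO libraries averaged 1.66 ± 0.0099 kb and I-BET151 libraries 6.71 ± 0.152 kb (SD, n = 2 each), which is a difference of 5.05 kb or 4.04-fold (exact permutation test, p = 0.333). The windows of HOXC (chr12:53888831-54106030) and HOXD (chr2:176042721-176240907) held 0 peaks in each library. Acetylation too weak to pass the caller's threshold was not detectable there at this depth.

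**Figure D1:**
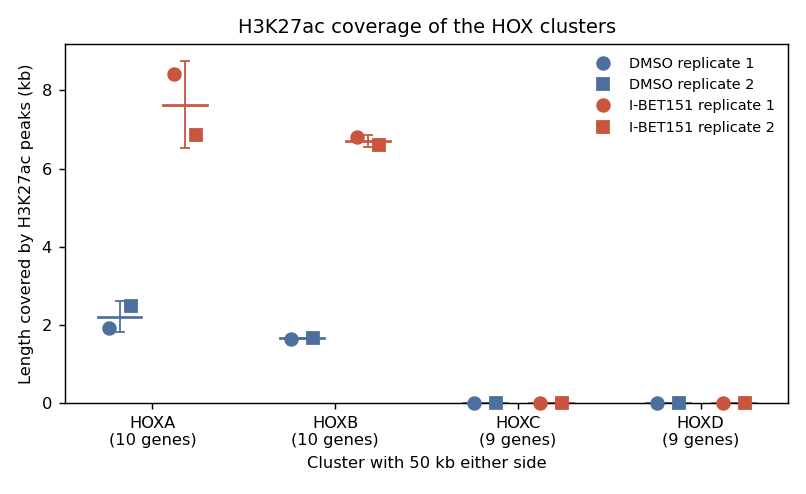
Length covered by H3K27ac peaks, in kb, of each HOX cluster with 50 kb on either side. Points are libraries, lines are group means and bars are SD (n = 2). The I-BET151 libraries lie at 6605 to 8426 bp for HOXA and HOXB, the DMSO libraries at 1655 to 2488 bp, and all libraries lie at 0 for HOXC and HOXD.

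Over the 4 clusters DMSO replicates 1 and 2 had 8 and 10 peaks, and I-BET151 replicates 1 and 2 had 29 and 26. The mean number was 9 ± 1.41 in DMSO and 27.5 ± 2.12 in I-BET151 (SD, n = 2 each), a difference of 18.5 (exact permutation test, p = 0.333). Mean covered length was 3.87 ± 0.409 kb for DMSO, against 14.4 ± 1.26 kb for I-BET151 (SD, n = 2 each), a difference of 10.5 kb or 3.71-fold. The I-BET151 lists covered less of the genome in all. As a share of all covered bases, the HOX clusters took 0.0361 and 0.0421% in DMSO and 0.166 and 0.156% in I-BET151.

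Then the genes were taken one by one, as the length covered by peaks in each gene and its flanks of 2 kb. A peak was present in any library at 11 of the 38 HOX genes, or 28.9%, against 58.7% of all protein-coding genes. All 11 were covered more in I-BET151, meaning that both I-BET151 libraries lay above both DMSO libraries, and 0 were covered less. Among all protein-coding genes 8.19% were covered more and 22% less. Among those with a peak, 14% were covered more and 37.6% less, and their median difference was −37.5 bp. The HOX windows are not independent, because the annotated bodies of HOXA3, HOXB3 and HOXB7 span their neighbours and count the same peaks.

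**Figure D2:**
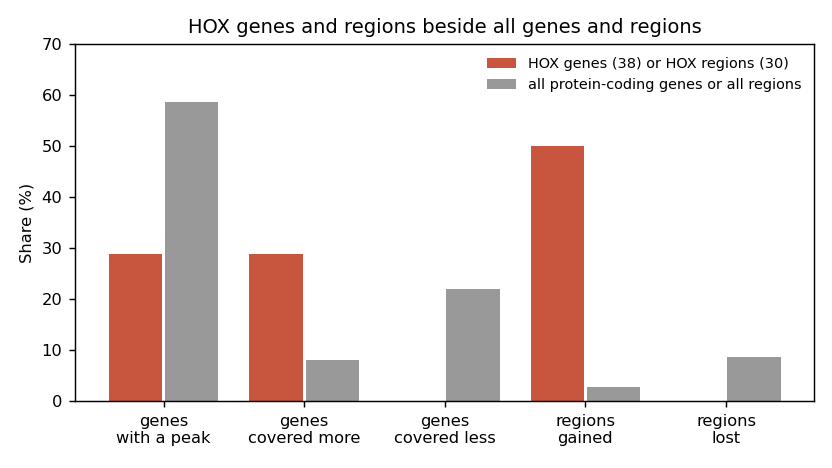
Shares, in percent, of the 38 HOX genes and 30 HOX regions (red bars) and of all protein-coding genes and all regions (grey bars). Peaks were present at 28.9% of HOX genes and 58.7% of all genes, and 50% of HOX regions and 2.81% of all regions were gained.

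Anterior genes, of paralog groups 1 to 3, are the first of a cluster to be expressed in the embryo and pattern the hindbrain and pharynx. Of 7 such genes 4 had a peak. HOXA3, which is needed for thymus and parathyroid development, was covered over 1924 and 2211 bp in DMSO, against 6308 and 4677 bp in I-BET151. Its difference of 3425 bp ranked 2 among the 20033 genes. HOXB3 was covered over 1655 and 1669 bp in DMSO, against 4810 and 4149 bp in I-BET151, a difference of 2817.5 bp that ranked 4. The long annotated bodies of both genes hold the peaks of several neighbours, which adds to these lengths.

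HOXA2, which specifies the second pharyngeal arch, had no peak in DMSO and was covered over 1106 and 1115 bp in I-BET151. The peaks lay in an exon of the gene and in the 2 kb downstream of it, inside the non-coding gene HOTAIRM1. HOXB2 had no peak in DMSO and was covered over 856 and 1219 bp in I-BET151. HOXB1, HOXD1 and HOXD3 had no peak in any library. All 4 anterior genes with a peak therefore belonged to HOXA or HOXB.

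Of 15 central genes, of paralog groups 4 to 8, 7 had a peak. HOXA4 was covered over 405 and 719 bp in DMSO, against 1253 and 1149 bp in I-BET151. HOXB4, also studied as a factor that expands blood stem cells, was covered over 309 and 344 bp in DMSO, against 970 and 979 bp in I-BET151. These paralogs were the only central genes acetylated in both groups. HOXA5, which acts in lung and gut development, had no peak in DMSO and was covered over 1595 and 1527 bp in I-BET151. That difference of 1561 bp ranked 19 of 20033. HOXA6 was counted through its flank alone, since 133 and 113 bp at the edge of a HOXA5 peak reached into it in I-BET151.

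HOXB5, the paralog of HOXA5, showed a smaller covered length, 0 bp in both DMSO libraries and 443 and 360 bp in I-BET151. HOXB7 and HOXB8 shared the same peaks, 0 bp in DMSO, against 1154 and 1237 bp in I-BET151, because the annotated body of HOXB7 spans HOXB8. HOXA7, HOXB6 and the central HOXC and HOXD genes had none. All 16 posterior genes, of paralog groups 9 to 13, had no peak. They comprised 4 HOXA, 2 HOXB, 5 HOXC and 5 HOXD genes, which pattern the trunk end, the limbs and the urogenital tract.

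**Figure D3:**
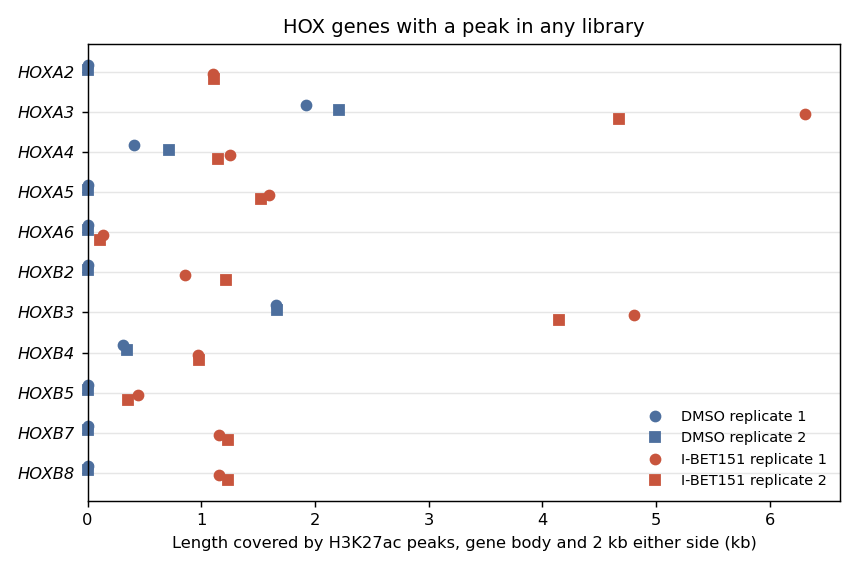
Length covered by H3K27ac peaks, in kb, in the body and 2 kb either side of each of the 11 HOX genes with a peak. Points are libraries. Both red points (I-BET151) lie to the right of both blue points (DMSO) for every gene, and 7 genes lie at 0 in DMSO.

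The acetylated stretch was next followed along each cluster. In HOXA the peaks ended at base 27130681 in DMSO replicate 1 and 27131304 in replicate 2, on either side of the HOXA4 start. In I-BET151 they ended at 27143528 and 27143508, at HOXA5. From HOXA2 the last covered base was thus 28.0 and 28.6 kb away in DMSO and 40.8 kb away in both I-BET151 libraries. The remaining 56.6 kb of the cluster, from HOXA6 to HOXA13, held no peak.

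In HOXB the peaks spanned 23.8 kb in both DMSO libraries, from the 3′ part of HOXB3 to HOXB4. They spanned 71.3 and 71.4 kb in I-BET151, from HOXB2 to HOXB8. The 5′ end of this span rests on chr17:48614183-48614573 alone, where a DMSO summit as high as in I-BET151 could have been missed. At its HOXB2 end the lower I-BET151 summit was 1.26 times what a DMSO library would have needed for a peak. The last covered base was 48578283 and 48578277 in DMSO, at the HOXB4 start, and 48614573 and 48614559 in I-BET151, within HOXB8. The remaining 114 kb, with HOXB9 and HOXB13, held no peak. In both clusters the stretch of I-BET151 reached further in both directions from the genes of paralog groups 3 and 4 than that of DMSO replicate 1, whereas DMSO replicate 2 already had a peak in HOTAIRM1 at the 3′ side of HOXA.

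**Figure D4:**
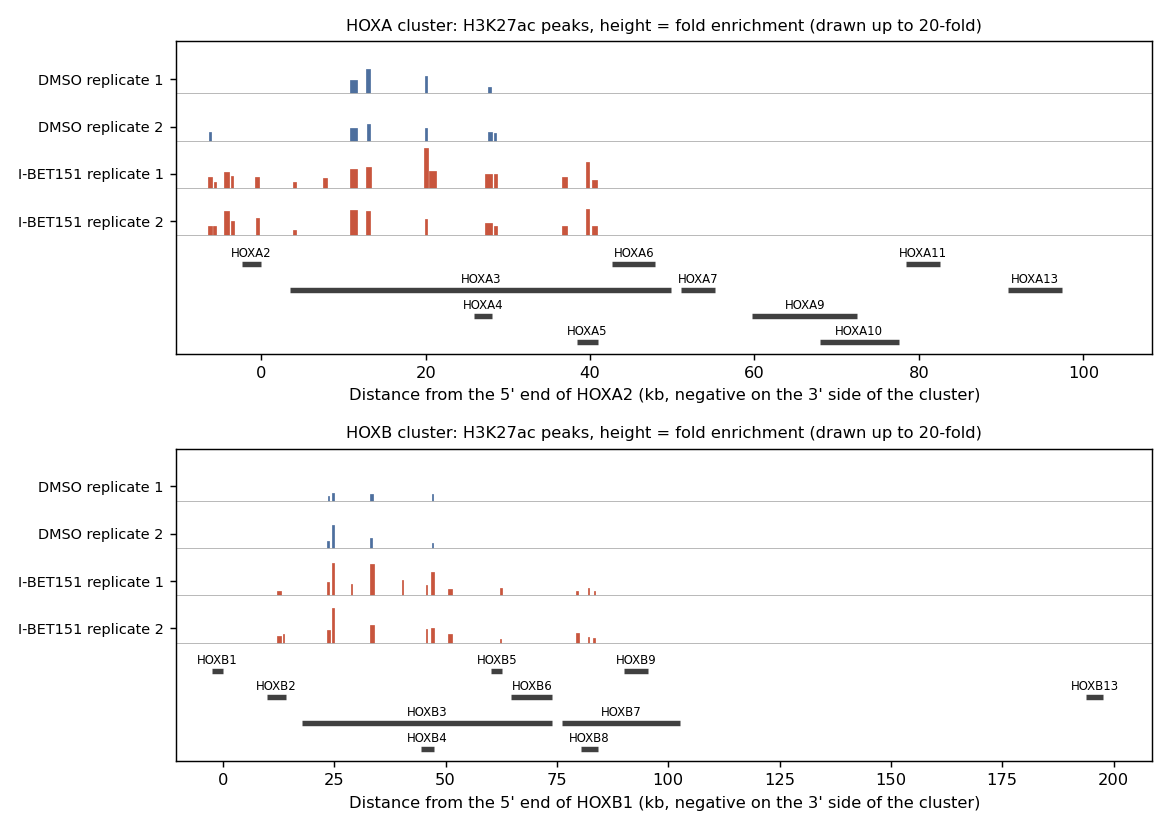
H3K27ac peaks along the HOXA and HOXB clusters, by distance in kb from the 5′ end of HOXA2 or HOXB1. Each box is a peak of a library, its height is the authors' fold enrichment (a full track is 20-fold, and higher values are drawn at 20), and black bars are gene bodies. DMSO peaks end near HOXA4 and HOXB4, I-BET151 peaks near HOXA5 and HOXB8, and the right-hand part of each cluster is empty. At the last HOXB8 region a DMSO summit of the same height could have been missed.

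Overlapping peaks, with 1 bp or more in common, were joined across the 4 libraries into 30 regions, 16 in HOXA and 14 in HOXB. Of these 15 (50%) were gained, meaning called in each I-BET151 library and in no DMSO library, and 0 were lost, the reverse. Over all 15752 regions 2.81% were gained and 8.6% lost. Gained regions numbered 8 in HOXA and 7 in HOXB. A further 8 were called in all 4 libraries, 5 in a single I-BET151 library and 2 in both I-BET151 libraries and DMSO replicate 2. No region was called in a DMSO library without being called in both I-BET151 libraries. Of the single calls, 3 in I-BET151 replicate 1 rested on 37.0 to 42.0 reads, with an input level of 1.0 to 2.0 reads. The 2 scales differ, because ChIP reads of this library are multiplied by 0.392 before they are compared with input. The fold enrichment there was 5.42 to 8.65. Elsewhere in the genome the largest number of gained regions within any 100 kb was 7.

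The height of the acetylation was compared at the 8 regions present in all 4 libraries. Heights are ChIP reads over the summit divided by the depth of the library in M of ChIP reads, written rpm. The strongest was the region of the printed HOXA3 promoter (chr7:27113492-27114343), with 25.8 and 26.1 in DMSO and 40.4 and 42.1 in I-BET151, 1.59-fold higher. In reads these are 205, 257, 313 and 338. A second HOXA3 region at chr7:27115456-27115991 had 17.8 and 17.4 in DMSO and 34.4 and 31.4 in I-BET151. The region at the HOXA4 start (chr7:27129932-27130816) had 17.7 and 15.4 in DMSO and 35.5 and 35.3 in I-BET151, 2.13-fold higher, and its peaks were 405 and 436 bp wide in DMSO, against 885 and 831 bp in I-BET151. The capitals of the HOXA4 promoter lie at the upstream end of the wider peaks, partly inside the peak of DMSO replicate 2.

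In HOXB the same was seen. The HOXB3 intronic region (chr17:48563966-48564871), part of which is printed above, had 14.8 and 14.9 rpm in DMSO and 33.5 and 36.3 in I-BET151, a ratio of 2.35. Each library was read at its own summit, and here these lay at bases 48564322 and 48564286 in DMSO and at 48564593 and 48564281 in I-BET151, so that the value of I-BET151 replicate 1 comes from another position and the peak of DMSO replicate 2 did not reach it. At the other 6 regions with reads the summits of the 4 libraries lay within 10 to 67 bp of each other. The HOXB4 start region (chr17:48577748-48578379) had 11.8 and 11.1 in DMSO and 26.7 and 28.5 in I-BET151, 2.41-fold higher and the largest ratio of the set. Both other shared regions lay in HOXB3, with ratios of 2.03 (chr17:48554377-48554937) and 1.58 (chr17:48555496-48555951). At none of these 7 regions did the groups overlap.

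Of the 8 shared regions 8 were wider in both I-BET151 libraries, against 16% of all 10317 regions called in all 4 libraries. Of the 7 whose reads could be worked out in every library, 7 had more summit rpm in both I-BET151 libraries, against 29.8% of 9429 regions. Their ratios ran from 1.58 to 2.41 with a median of 2.03, beside a median of 1.0 over the 9429. The fold enrichment, which also depends on the local input, was higher in both I-BET151 libraries at 6 of the 8, against 25.4% of all. The exceptions were at HOXA3. At chr7:27115456-27115991 the fold was 12.2 and 8.55 in DMSO and 10.6 and 12.1 in I-BET151. At chr7:27122468-27122950 it was 8.48 and 6.5 in DMSO and 42.0 and 8.18 in I-BET151, where the value of 42.0 had an input level of 0.508 reads, against 3.0 in DMSO replicate 2 and 5.0 in I-BET151 replicate 2.

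**Figure D5:**
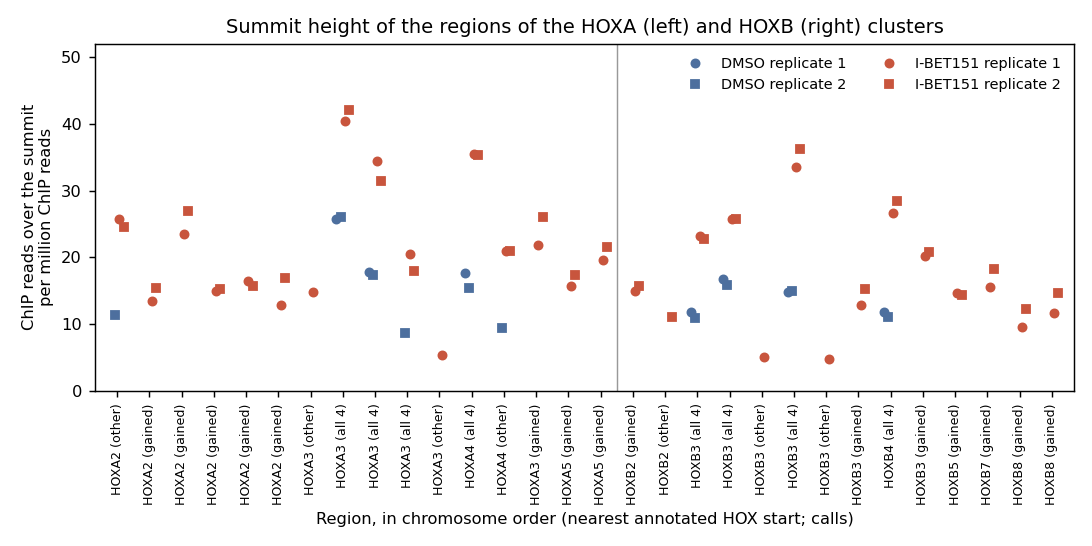
ChIP reads over the summit per M of ChIP reads (rpm), for each of the 16 HOXA and 14 HOXB regions in chromosome order. Points are libraries with a peak whose reads could be worked out, labelled with the nearest annotated HOX start and with the calls. Where both groups have points, I-BET151 lies higher, up to 42.1 at HOXA3 against 26.1 in DMSO, and gained regions have I-BET151 points alone, from 9.54 to 26.9.

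The gained HOXA regions began in HOTAIRM1, a non-coding RNA gene at the 3′ side of HOXA2, transcribed from the opposite strand. Its regions were chr7:27096882-27097202, chr7:27098100-27098723 and chr7:27098996-27099346, and the second was the highest, with 23.5 and 26.9 rpm and a fold of 8.03 and 12.1. The next, chr7:27101966-27102424, lay in a HOXA2 exon, with 16.5 and 15.7 rpm. A region in a HOXA3 exon followed at chr7:27106568-27106967, with 12.8 and 16.9.

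The others lay at the far end of the acetylated stretch, around HOXA5. The HOXA5 downstream region (chr7:27139265-27139928), shown above in capitals, had 21.9 and 26.1 rpm, against 25.8 and 26.1 at the printed HOXA3 promoter in DMSO. At HOXA5 itself chr7:27142171-27142551 had 15.7 and 17.3, with a fold of 13.2 in I-BET151 replicate 2 that was the highest of the gained regions. The region in a HOXA5 exon (chr7:27142959-27143528) had 19.6 and 21.5. All 8 gained HOXA regions reached a −log10 q of 5 in each I-BET151 library.

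The fold enrichment was 1.88 to 6.91 at gained HOXB regions and 2.56 to 13.2 at those of HOXA. The widest, chr17:48581506-48582478, lay between HOXB4 and HOXB5, near the microRNA gene MIR10A, and had 20.2 and 20.8 rpm over 970 and 957 bp. HOXB2 had one in an exon at chr17:48543190-48544088, with 15.0 and 15.7. HOXB4 gained a second region at chr17:48576517-48576927, with 12.8 and 15.2. HOXB5 had one at chr17:48593139-48593581, with 14.6 and 14.4 and a fold of 3.48 and 1.88, the second of which was the lowest of all gained regions. At HOXB7 and HOXB8 chr17:48610289-48610860 had 15.5 and 18.3, chr17:48612957-48613298 had 9.54 and 12.2, and chr17:48614183-48614573 had 11.6 and 14.6. Of these 7 regions 2 reached a −log10 q of 5 in each I-BET151 library.

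Gained regions were 321 to 973 bp wide with a median of 443 bp, against 426 bp over all 443 gained regions. Their summits lay within 1 kb of some annotated HOX start at 10 of 15, against 17 of all 30 HOX regions. Counting only the canonical start of each HOX gene, these numbers were 5 of 15 and 9 of 30. To learn what a missing DMSO peak leaves open, the reads that a DMSO library would have needed for a peak were worked out for each region, from the input in I-BET151 scaled to the DMSO depth. They came to 3.46 to 12.2 rpm. At 14 of 15 regions the lower I-BET151 library had more than either DMSO library would have needed. Over all 15 regions the median ratio was 1.79. The exception was chr17:48614183-48614573 at HOXB8, at 0.951 times, where a DMSO summit as high as in I-BET151 could have been missed. By cluster the ratio was 1.13 to 4.31 in HOXA and 0.951 to 2.12 in HOXB. It was 1.13 at the gained region in a HOXA3 exon and 1.21 to 1.37 at those nearest to HOXB2, HOXB5 and HOXB7. There a DMSO summit only somewhat lower than in I-BET151 could also have gone uncalled. The limits assume equal relative input in both groups.

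Non-coding RNA genes of the clusters moved with their coding neighbours, whose windows they overlap. Of 23 such genes 7 had a peak, 3 in HOXA and 4 in HOXB, and all 7 were covered more in I-BET151. Of all 20745 lncRNA and miRNA genes 20.6% had a peak, and of those with a peak 17.1% were covered more and 33.1% less. HOTAIRM1, which takes part in HOXA activation during myeloid differentiation, was covered over 0 and 277 bp in DMSO, against 1995 and 2027 bp in I-BET151. HOXB-AS1 was covered over 0 bp in both DMSO libraries and 856 and 1219 bp in I-BET151. HOTTIP and HOTAIR, at the posterior part of HOXA and in HOXC, had no peak. MIR10A was covered over 309 and 344 bp in DMSO, against 984 and 913 bp in I-BET151, through the HOXB4 start region and the widest gained region. MIR10B in HOXD and the MIR196 genes had none.

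The microRNAs of the clusters are shown with the seed, bases 2 to 8, in capitals (RefSeq, GRCh38), because MIR10A alone among the microRNA genes of the clusters had a peak. MIR196B and MIR196A2, whose mature forms share a seed, lie in the part of HOXA and in HOXC where no peak was found.
hsa-miR-10a-5p: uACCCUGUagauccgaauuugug
hsa-miR-196b-5p: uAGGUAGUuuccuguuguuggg
hsa-miR-196a-5p: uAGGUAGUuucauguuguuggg

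The sequence under the regions was compared with that of all H3K27ac regions. In 300 bases around the strongest summit, median GC was 69.8% in the 30 HOX regions and 69.0% in all 15752, and the median observed over expected CpG was 0.76 and 0.769. Letters of homeodomain sites were rare in both. Searched on both strands, TAATTA (a homeodomain core) and TGATTGA (a HOX site with PBX) were found in 0 of 30 HOX regions and in 0.66 and 0.527% of all regions. TTTATNG (CDX and posterior HOX) was found in 1 of 30, or 3.33%, against 2.07% of all, and AGGTCA (a nuclear receptor core) in 2, or 6.67%, against 11.1%. The 4 motifs do not contain each other.

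RefSeq promoters were matched for 20 of the 38 genes, 27 promoters in all. TGATTGA was found in 4 of the 27 (14.8%), among them those of HOXA2 and HOXB1, against 2.07% of all 35114 promoters, and TTTATNG in 7 (25.9%) against 9.73%. TAATTA was found in 2 (7.41%) against 4.84%, and AGGTCA in 0 against 13.8%. Several promoters share a gene, and those of HOXC4 and HOXC5 are the same sequence. Median GC was 58.0% against 58.7%, and the median observed over expected CpG 0.849 against 0.579. Most of these 27 promoters lay outside the peaks, and the HOXA3 promoter printed above was the only one wholly covered in each library. The 27 do not stand for the acetylated genes, because HOXA5, HOXB2, HOXB3, HOXB4, HOXB5, HOXB7 and HOXB8 had peaks but no matched promoter. Summits of regions lay 221 bp from the HOXB4 start and 418 bp from the HOXA5 start, for example.

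Related genes were counted in the same way. Beside these counts, 58.7% of all protein-coding genes had a peak, and of those 14% were covered more and 37.6% less. No list was tested against these shares. HOX cofactors are the PBX, MEIS and PKNOX proteins that bind DNA with HOX factors. Of 9 such genes 7 had a peak, 2 were covered more, 1 less, and 4 overlapped between groups. PBX3, for example, was covered over 2383 and 2068 bp in DMSO, against 2623 and 2457 bp in I-BET151. Of 12 regulators of HOX genes 9 had a peak, with 2 covered more (KMT2A and EZH2, which write activating and repressive histone methylation), 2 less and 5 overlapping. The genes covered less were MEN1, a partner of KMT2A, with 522 and 886 bp in DMSO, against 363 and 345 bp in I-BET151, and RARG, a retinoic acid receptor, with 1410 and 1287 bp in DMSO, against 653 and 663 bp in I-BET151. Median differences were 22.0 bp for the cofactors and −8.5 bp for the regulators.

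Genes next to the clusters were counted as a comparison, beside the same shares of all protein-coding genes. Of 11 neighbours 4 had a peak and all 4 overlapped between groups, among them HIBADH with 550 and 486 bp in DMSO, against 528 and 471 bp in I-BET151. EVX1 and EVX2, homeobox genes at the 5′ ends of HOXA and HOXD, had no peak. Of the 6 ParaHox genes, relatives of the HOX genes outside the clusters, PDX1 was covered over 2884 and 2903 bp in DMSO, against 3645 and 2925 bp in I-BET151. CDX2, a regulator of posterior HOX genes, was covered over 4602 and 4224 bp in DMSO, against 4763 and 4590 bp in I-BET151, so that its groups overlapped.

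Markers of cell types were counted beside the HOX genes, since HOX levels differ between tissues. The shares among all protein-coding genes with a peak, 14% covered more and 37.6% less, stand beside these counts. All 9 PP markers with a peak were covered more in I-BET151, and their summed length was 35.3 to 35.8 kb in DMSO and 39.5 to 40.5 kb in I-BET151. Of 4 neural markers NES and TUBB3 were covered more, and their summed length was 1.07 to 1.83 kb in DMSO and 2.64 to 2.66 kb in I-BET151, while PAX6 and SOX1 were at 0. Of 6 mesenchymal markers VIM alone had a peak, at 1.84 to 1.97 kb in DMSO and 2.14 to 2.25 kb in I-BET151, while COL1A1, COL3A1, TWIST1, PRRX1 and PDGFRA were at 0. Of 5 pluripotency genes LIN28B alone had a peak, at 1.25 to 1.31 kb in DMSO and 1.31 to 1.34 kb in I-BET151. Hepatic, intestinal, and endothelial and blood markers had 1 gene each that was covered less and none covered more. ALB, AFP, LGR5, CDH5 and PTPRC were at 0. The part of these markers in the HOX result was not tested.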

How the data were processed

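H3K27ac ChIP-seq peak lists of 2 DMSO and 2 I-BET151 libraries were analysed. According to the methods and processing notes, the authors aligned reads to hg38 with Bowtie2 2.2.5, removed duplicates and called peaks with MACS2 2.1.2 at default settings, and each library has its own list. The deposited lists give for each peak the interval, the summit, a score, the fold enrichment as a ratio to the local background, and the p-value and q-value as −log10. The score was not used. Duplicate removal caps peak heights, and a fixed threshold leaves out weak peaks in shallow libraries.

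The lowest −log10 q was 1.3 to 1.36. The build was checked by position: a protein-coding start was within 3 kb of 82.1 to 85.9% of summits (GENCODE 44), against 17.3 to 18.0% after a shift by 1 Mb. MACS2's fold has a pseudocount of 1 and its p is a Poisson tail, so each pair of values fixes the ChIP reads and the input level at a summit. The lowest input level then gives the depth, with a genome size of 2.7e+09 bp and a fragment length. The shortest peak of each list, 247 to 272 bp, was taken as that length. Depth and rpm values depend on this assumption. The recovery was tested on simulated peaks. In the deposited lists 97.2 to 97.7% of peaks had a single solution. Inputs were estimated at 2.67 to 3.04 M reads.

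Covered length, regions, summit reads and gene windows were computed in Python 3.11.15 with numpy 2.4.6, pandas 2.3.3, scipy 1.17.1, pysam 0.24.0 and matplotlib 3.10.9. Groups come from the library titles. Single values were compared by two-sided exact permutation tests over 6 assignments. Alternatives were a stricter q, equal list lengths, other flanks and merging rules, the replicate block and leaving out each library. Each HOX gene is accounted for, and those named with values are the genes with a peak. Regions named are those gained and those shared by all libraries. The genes and lists were chosen with earlier results of these data known. One HOXA gene was not analysed here.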

Additional observations from a re-analysis of the deposited data

Results flagged for a closer look

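The input libraries entered no comparison of their own, but their level at HOX summits was worked out from the lists. It is given as a ratio to the genome-wide input level, which was taken as the lowest input level in the same list. By this definition no median over summits lies below the genome-wide level, so a median above it is not a result. Over the summits in the HOX windows the median input level was 39.2 times the genome-wide level in DMSO replicate 1 (7 summits), 28.1 times in DMSO replicate 2 (10 summits), 28.0 times in I-BET151 replicate 1 (29 summits) and 40.7 times in I-BET151 replicate 2 (26 summits). Over all peaks of the same lists the ratio was 42.7, 37.7, 38.5 and 41.5, in each library higher than over the HOX summits. Groups overlapped in this measure, and each group held 1 library near 28 and 1 near 40. With 2 libraries a group no test of a single library was possible.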

How the results depend on the processing

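The 11 results were recomputed under 14 other settings, which gave 106 values. Of these 104 kept their direction or stayed at 0, and 2 moved away from 0: with 100 kb on either side the HOXC and HOXD windows reached peaks outside the clusters, and their differences became 0.027 and 0.0405 kb. Leaving out 1 library at a time gave differences of 4.66 to 6.22 kb for HOXA, 4.94 to 5.16 kb for HOXB, 9.6 to 11.4 kb and 17 to 20 peaks for the 4 clusters, and 15 to 19 gained and 0 lost regions. With a library left out the rule for a gained region is looser, so the number of gained regions could not fall below 15. Without flanks HOXA differed by 3.84 kb. With equal numbers of top-ranked peaks (12312 a list) the 4 clusters differed by 10.5 kb. With a −log10 q of at least 5, 10 regions were gained and 9 genes were covered more. With the replicate number as a block the 4 clusters differed by 10.5 kb. The mean of paired differences always equals the difference of the group means, so this value was fixed in advance. Deviations of same-numbered libraries correlated at 0.122 over 11752 genes, which are not replicates, and 2 pairs are too few to take the numbers as pairing. The other values of the replicate block were likewise fixed by the main results. All of them are among the 104 values and are no check. Depth of 7.76 to 9.84 M ChIP reads limits what a missing peak means, and no RNA was measured in these libraries.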
